A study of Mus musculus with 6 samples.

Results

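Transcripts of 47 genes of mitosis and chromosome segregation were followed in C2C12 cells that differentiated with or without lenvatinib. C2C12 cells are immortal mouse myoblasts that leave the cell cycle and fuse into myotubes in low serum. Lenvatinib is a cancer drug, an inhibitor of several receptor tyrosine kinases, those for VEGF and FGF among them. The rule lists the genes by name and uses no measured value, and each of the 47 names matched 1 of the 56792 rows of the deposited count table. The untreated group holds 3 libraries of wild-type C2C12 cells, and the other group 3 libraries of the same cells given 1 µM lenvatinib. Both groups had been grown in 10% fetal calf serum, were kept in 2% horse serum and had differentiated for 4 days. All libraries come from a single cell line, and separate cultures are not stated for the replicates, so p-values here measure the spread among these 6 libraries alone, possibly a technical one. Whether untreated cells were given solvent, and the time at which the drug was added, are not stated either.

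Mitosis is driven by the kinase CDK1 bound to cyclins A and B. Condensin and topoisomerase II compact the chromosomes, kinetochores join the centromeres to spindle microtubules, and the spindle checkpoint holds back the anaphase-promoting complex (APC/C) until every chromosome is attached. The anaphase spindle and a contractile ring then divide the cell. Most of these genes are transcribed late in the cell cycle, and myoblasts that commit to differentiation leave the cycle and switch them off, so in a differentiating culture their transcripts come largely from cells that still divide. In bulk RNA, fewer dividing cells and less RNA per dividing cell cannot be told apart.

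Many mitotic promoters carry the cell cycle genes homology region (CHR), a short element bound by the MuvB complex, which joins the repressive DREAM complex in resting cells and B-MYB and FOXM1 in dividing cells, and CCAAT boxes bound by NF-Y. RefSeq promoter windows, from 250 bases before to 50 bases after a transcript start (build GRCm38.p6), matched 40 of the 47 genes by symbol, with 42 windows. Both strands of the windows were searched for the CHR form TTTGAA, which on the opposite strand reads as its reverse complement. They were also searched for the CHR form TTCGAA, which reads the same on either strand, and for the CCAAT box on both strands. Overlapping matches were all counted, and a match of 1 motif may overlap a match of another. TTTGAA or TTCGAA was found in 35 of the 42 windows (83.3%), against 19.2% of all 32851 promoter windows. CCAAT was found in 33 (78.6%) against 37.4%, and both elements in 30 (71.4%) against 7.52%. Of the 48 TTTGAA and TTCGAA matches, 34 (70.8%) began within 50 bases of the start, against 25.2% of the matches in all windows. A match is a description of the letters, not evidence of binding.

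The 200 bases before the start are printed for the 6 genes with the smallest p-values among those whose window may be shown, since these genes carry the fold changes described below and their promoters show how the elements are laid out. Capitals mark the matches of the 3 motifs on either strand, each sequence runs 5′ to 3′ on the strand of its gene, and all are from RefSeq on GRCm38.p6.
Smc2: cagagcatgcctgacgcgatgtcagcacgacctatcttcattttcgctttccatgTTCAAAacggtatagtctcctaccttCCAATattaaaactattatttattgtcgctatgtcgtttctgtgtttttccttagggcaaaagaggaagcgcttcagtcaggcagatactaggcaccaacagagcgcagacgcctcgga
Spc25: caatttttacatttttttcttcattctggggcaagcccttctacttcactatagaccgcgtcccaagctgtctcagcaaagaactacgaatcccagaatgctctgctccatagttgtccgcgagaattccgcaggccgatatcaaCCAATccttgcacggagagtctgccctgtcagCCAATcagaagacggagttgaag
Cdc25b: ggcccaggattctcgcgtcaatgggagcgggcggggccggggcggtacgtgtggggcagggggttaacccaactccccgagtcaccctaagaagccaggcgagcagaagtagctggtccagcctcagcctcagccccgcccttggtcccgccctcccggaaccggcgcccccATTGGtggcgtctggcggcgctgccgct
Top2a: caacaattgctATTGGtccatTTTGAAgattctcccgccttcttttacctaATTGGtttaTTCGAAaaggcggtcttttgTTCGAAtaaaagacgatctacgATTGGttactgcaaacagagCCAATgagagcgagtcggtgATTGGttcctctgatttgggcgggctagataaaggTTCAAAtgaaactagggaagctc
Cdk1: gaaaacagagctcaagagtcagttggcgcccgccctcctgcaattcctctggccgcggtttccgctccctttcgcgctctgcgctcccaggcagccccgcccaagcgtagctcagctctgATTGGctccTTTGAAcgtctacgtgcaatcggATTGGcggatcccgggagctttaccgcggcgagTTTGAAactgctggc
Cdc20: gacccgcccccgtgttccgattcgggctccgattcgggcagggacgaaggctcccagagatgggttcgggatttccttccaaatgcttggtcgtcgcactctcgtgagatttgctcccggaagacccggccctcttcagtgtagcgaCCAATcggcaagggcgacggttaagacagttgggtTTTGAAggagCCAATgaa
These stretches are chr4:52439021-52439220 on the plus strand for Smc2, chr2:69206214-69206413 on the minus strand for Spc25 and chr2:131186748-131186947 on the plus strand for Cdc25b. Those of Top2a, Cdk1 and Cdc20 are chr11:99024190-99024389 on the minus strand, chr10:69352913-69353112 on the minus strand and chr4:118437344-118437543 on the minus strand. Top2a, the decatenating topoisomerase, holds 4 TTTGAA or TTCGAA matches and 5 CCAAT boxes in this stretch, the Cdk1 stretch holds 2 of each, and in Cdc20 a TTTGAA lies 18 bases before the start between CCAAT boxes that begin 53 and 8 bases before it. Smc2 has a TTCAAA 145 bases before the start and another at position 27 after it. In Spc25 and Cdc25b the match lies after the start, at positions 25 and 8, outside the printed stretch. The promoters of Birc5, Ccnb1, Cenpe, Ncaph, Nek2, Nuf2 and Nusap1 had no TTTGAA or TTCGAA in the window. The share with a match was 9 of 10 windows for genes that passed the test described next and 26 of 32 for genes that did not, so promoters of this kind were found in both.

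Across the whole table the libraries held 24566768 to 32406563 counts, and 14989 rows had enough counts for the test (edgeR's quasi-likelihood test with Benjamini-Hochberg adjustment over these rows). An adjusted p under 0.05 was called, and 28.2% of rows passed, 13.3% of them higher and 14.9% lower with lenvatinib, where each percentage is of all rows tested. Expression is given as CPM, counts relative to the library total scaled with TMM factors. A fold change above 1, or above 0 on the log2 scale, means more transcript with lenvatinib, and log2 values carry their SE after a ±.

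Mitotic transcripts were present in every library and differed little between the groups. Of the 46 mitosis genes with enough counts, 10 rose with lenvatinib (13.3% of all rows did), 1 fell (14.9% of all rows did) and 35 did not pass, so that 23.9% were called against 28.2% of all rows. The share called is near the background and is not a result about these genes. The median log2 fold change of the 46 genes was 0.10, against 0.0027 for all rows, and 33 of the 46 were above 0. Folds were small, from 1.08 to 1.32 among the 10 genes that rose. The single gene that fell was Cdc20, 1.17-fold lower. Of the 35 genes that did not pass, 30 had a 95% interval inside a 1.3-fold change in either direction and 33 inside a 1.5-fold change. The groups did not overlap in 15 of the 46 genes, against 40.1% of all rows.

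**Figure D1:**
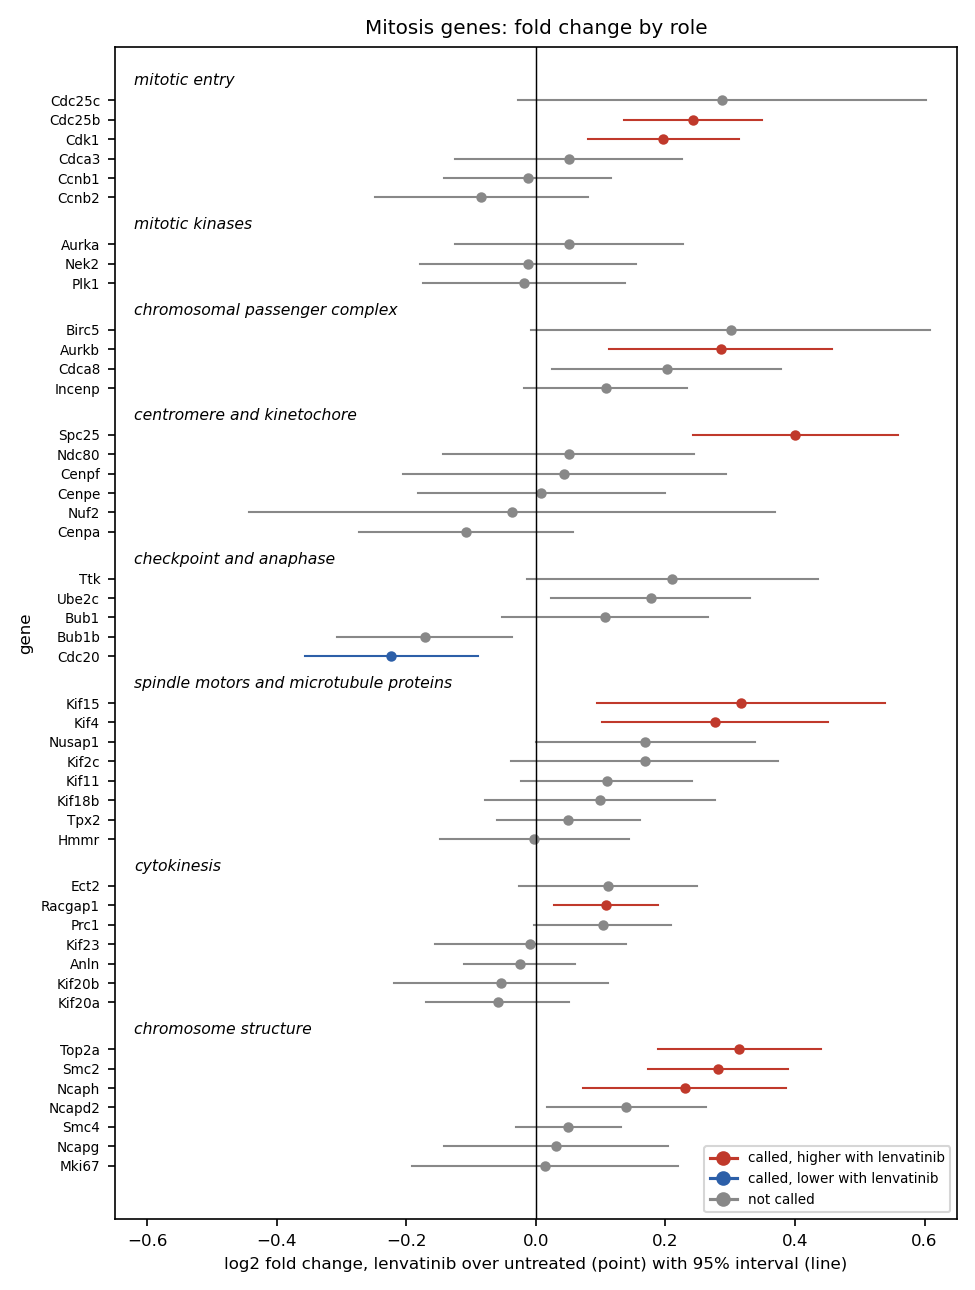
Log2 fold change of each of the 46 tested genes, lenvatinib over untreated, with its 95% interval, ordered within 8 roles (3 libraries per group). Red and blue mark genes past an adjusted p of 0.05, higher and lower, and grey the 35 that did not pass. All points lie between -0.22 and 0.40.

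The first untreated library stood apart from the other 2 of its group in these genes. Summed over the 47 genes, the untreated libraries held 1158, 1025 and 1022 CPM and the lenvatinib libraries 1132, 1125 and 1160.1 CPM. The first untreated library thus lay at the level of the lenvatinib libraries and the other 2 below all of them. It was the highest untreated library in 41 of 46 genes (89.1%), where it was the highest in 32.6% of all rows. Without it, 18 of the 46 genes were called (39.1%, against 24.9% of all rows), 17 higher and 1 lower, and 41 of 46 fold changes were above 0, with a median of 0.14. Since this library was singled out as the highest in these genes, the larger share of calls without it restates that pattern and adds nothing to it. The same holds for each single gene reported below as called without it. Without the second or the third untreated library, 8 and 7 genes were called (17.4% and 15.2%, against 24.97% and 23.8% of all rows), and without the second lenvatinib library 7 (15.2%, against 24.4% of all rows). What sets the first untreated library apart was not tested. The replicate number as a block left the count at 11 (23.9%, against 27.6% of all rows).

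**Figure D2:**
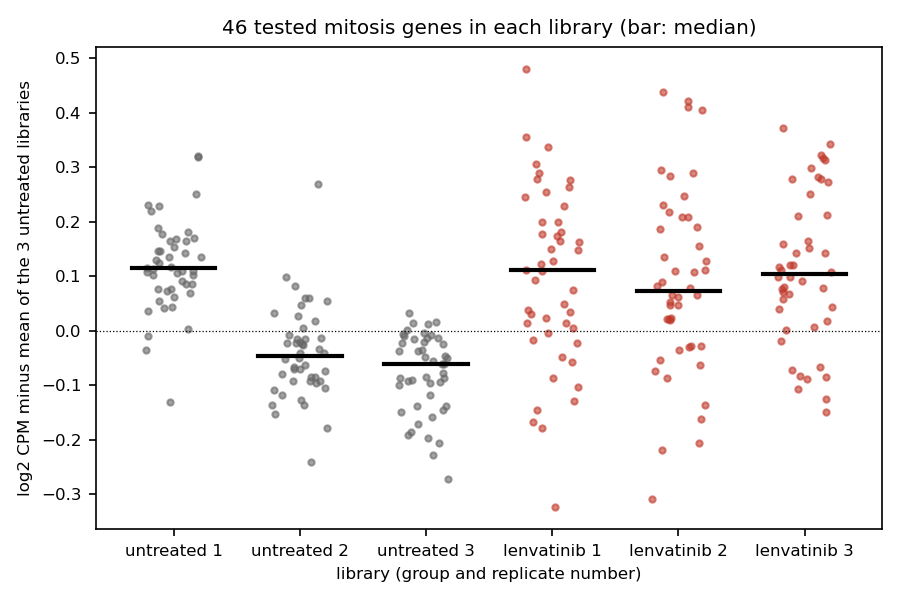
Each point is 1 of the 46 tested genes, given as its log2 CPM (prior count 2) minus its mean over the 3 untreated libraries, for each of the 6 libraries; bars are medians over genes. The median is 0.11 in the first untreated library, -0.046 and -0.061 in the other 2, and 0.11, 0.072 and 0.10 in the lenvatinib libraries.

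Of 6 tested genes of mitotic entry Cdc25b and Cdk1 rose (33.3% called, against 28.2% of all rows). The B-type cyclins showed no called change. Cdc25b encodes a phosphatase that removes the inhibitory phosphates of CDK1. It was at 37.2, 33.7 and 33.3 CPM in the untreated and 39.8, 40.1 and 43.1 CPM in the lenvatinib libraries, and its row shares 334 bases with that of Spef1 (9.58 CPM, not called). All lenvatinib libraries were above all untreated ones, with the first untreated library closest to them, and Cdc25b rose 1.18-fold (0.24 ± 0.05, adjusted p = 0.000335). Cdk1, the mitotic kinase itself, was at 29.5, 26.9 and 25.7 CPM in the untreated and 30.3, 31.1 and 32.5 CPM in the lenvatinib libraries. The groups did not overlap, although the first untreated library lay within 1 CPM of the lowest lenvatinib library, and Cdk1 rose 1.15-fold (0.20 ± 0.06, adjusted p = 0.00792). Cdk1 no longer passed when either library numbered 3 was left out (adjusted p = 0.0766 without the untreated and 0.0633 without the lenvatinib library). Cdc25c, a related phosphatase with few counts, was at 3.08, 3.72 and 2.54 CPM in the untreated and 3.96, 3.44 and 3.92 CPM in the lenvatinib libraries. Its groups overlapped, and its interval of -0.028 to 0.60 on the log2 scale was among the widest (adjusted p = 0.179).

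Ccnb1 and Ccnb2 encode the B-type cyclins that activate CDK1. Ccnb1 was at 23.8, 21.6 and 22.4 CPM in the untreated and 24.1, 22.1 and 21.3 CPM in the lenvatinib libraries, with groups that overlapped throughout and a fold change of -0.013 ± 0.06 (adjusted p = 0.916, 95% interval -0.14 to 0.12). Ccnb2 (-0.084 ± 0.08, adjusted p = 0.493) and Cdca3, which promotes entry by marking the CDK1 inhibitor WEE1 for destruction (0.05 ± 0.09, adjusted p = 0.723), did not pass either. Ccna2, encoding cyclin A2, had 0 counts in 3 libraries and 1 count in the other 3, under the 3 counts (0.0927 to 0.123 CPM) that a count of 0 allows, and was not tested. The row of Ccna2 overlaps that of Exosc9 on the opposite strand by 863 bases, and Exosc9 was at 37.2 CPM. Whether the overlap bears on the Ccna2 counts was not tested, and nothing is read from them.

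The group differences of the mitotic kinases Plk1, Aurka and Nek2 were smaller than the spread of the libraries. Aurora A, encoded by Aurka, builds the spindle poles, and its transcript was at 11.4, 10.5 and 9.91 CPM in the untreated and 10.8, 11.1 and 11.03 CPM in the lenvatinib libraries. Plk1, whose kinase acts from entry to cytokinesis, was at 15.1, 14.1 and 14.05 CPM in the untreated and 13.2, 14.6 and 14.8 CPM in the lenvatinib libraries. Nek2, encoding a kinase that separates the centrosomes, was at 19.1, 15.6 and 14.8 CPM in the untreated and 15.5, 17.5 and 16.2 CPM in the lenvatinib libraries. In all 3 genes the groups overlapped, and the first untreated library was the highest of all 6. Fold changes were 0.051 ± 0.09, -0.019 ± 0.08 and -0.012 ± 0.08 (adjusted p = 0.722, 0.894 and 0.939), with 95% intervals of -0.13 to 0.23, -0.17 to 0.14 and -0.18 to 0.15.

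The chromosomal passenger complex joins the kinase Aurora B to INCENP, survivin and borealin and corrects faulty attachments. Of its 4 genes 1 rose and 3 did not pass (25% called, against 28.2% of all rows), all with fold changes above 0. Aurkb, encoding the kinase, was at 10.9, 11.4 and 10.6 CPM in the untreated and 13.5, 14.6 and 12.1 CPM in the lenvatinib libraries. Every lenvatinib library was above every untreated one, and Aurkb rose 1.22-fold (0.29 ± 0.09, adjusted p = 0.00896). Without the second lenvatinib library it did not pass (adjusted p = 0.0838). Cdca8, encoding borealin, whose row overlaps the expressed 9930104L06Rik on the opposite strand, was at 10.9, 10.5 and 9.42 CPM in the untreated and 11.8, 11.05 and 12.4 CPM in the lenvatinib libraries and missed the threshold, although its groups did not overlap (0.20 ± 0.09, adjusted p = 0.0829). Birc5, encoding survivin, was low, at 2.63, 3.096 and 2.96 CPM in the untreated and 3.52, 3.56 and 3.61 CPM in the lenvatinib libraries. Its groups did not overlap either, and its interval of -0.0068 to 0.61 was wide (adjusted p = 0.145). Incenp, the scaffold, was at 33.4, 27.6 and 27.8 CPM in the untreated and 31.8, 31.2 and 32.5 CPM in the lenvatinib libraries. The first untreated library was the highest of all 6 and the other 2 were the lowest. Incenp did not pass with all libraries (0.11 ± 0.06, adjusted p = 0.209). It passed without the first untreated one (0.20, adjusted p = 0.0107), which restates how high that library was and adds no support.

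Among centromere and kinetochore genes Spc25 rose (16.7% called, against 28.2% of all rows), with the largest fold change of the 46 genes. Spc25 encodes a subunit of the NDC80 complex, which grips spindle microtubules. Its transcript (chromosome 2, 69024239 to 69036538 as deposited) was at 11.996, 13.01 and 11.9 CPM in the untreated and 17.2, 16.5 and 15.1 CPM in the lenvatinib libraries. The groups stood well apart, and Spc25 rose 1.32-fold (0.40 ± 0.08, adjusted p = 8.32e-05). Of its partners in the same complex, Spc24 also rose (0.24 ± 0.09, adjusted p = 0.0435), and Ndc80 and Nuf2 did not pass. Spc24 is 1 of the further kinetochore genes given below and was named here after its value was seen. Ndc80 was at 12.2, 10.9 and 9.67 CPM in the untreated and 12.8, 11.3 and 10.1 CPM in the lenvatinib libraries, and Nuf2 was at 16.5 ± 3.39 and 16.02 ± 1.65 CPM (mean ± SD, n = 3 each), with fold changes of 0.051 ± 0.10 and -0.037 ± 0.16 (adjusted p = 0.75 and 0.908). In both genes the groups overlapped, and the first untreated library was the highest of its group. Whether Spc25 differs from its partners in response was not tested.

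Cenpa, the histone variant that marks the centromere, was at 14.3, 12.5 and 12.8 CPM in the untreated and 11.7, 12.4 and 12.6 CPM in the lenvatinib libraries, with overlapping groups (-0.11 ± 0.08, adjusted p = 0.359). Cenpe, a kinetochore motor, was at 22.5, 17.8 and 16.97 CPM in the untreated and 18.3, 18.6 and 20.5 CPM in the lenvatinib libraries. The untreated values of Cenpe enclosed all 3 lenvatinib values (0.0081 ± 0.09, adjusted p = 0.961). Cenpf, a large kinetochore protein, gave 0.044 ± 0.11 (adjusted p = 0.822).

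The checkpoint and anaphase genes included the only fall (20% called, against 28.2% of all rows). Cdc20 encodes the activator of APC/C that the checkpoint holds back. Its transcript (chromosome 4, 118290098 to 118294549 as deposited) was at 24.9, 23.98 and 23.9 CPM in the untreated and 19.4, 19.6 and 23.05 CPM in the lenvatinib libraries. The untreated libraries lay within 1 CPM of each other and above every lenvatinib library, the third of which was closest to them. Cdc20 fell by 0.22 on the log2 scale (SE 0.07, adjusted p = 0.00821). The row of Cdc20 shares 53 bases with that of Elovl1 on the opposite strand (79.3 CPM, not called). The call was lost without the first (adjusted p = 0.0666) or the second lenvatinib library (adjusted p = 0.0622). Bub1b, encoding the checkpoint protein BUBR1, which binds and inhibits CDC20, was at 22.5, 20.5 and 19.6 CPM in the untreated and 18.8, 17.9 and 18.8 CPM in the lenvatinib libraries. The groups did not overlap, with lower values under lenvatinib, and Bub1b stood at the threshold (-0.17 ± 0.07, adjusted p = 0.0502). Bub1b was called lower in 3 of the 14 alternative fits, among them the fit without the third untreated library (adjusted p = 0.0275). Its adjusted p was 0.281 without the first untreated library, 0.161 without the second lenvatinib library and 0.137 with DESeq2.

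Ube2c encodes an APC/C ubiquitin-conjugating enzyme and was at 17.8, 16.1 and 13.9 CPM in the untreated and 17.8, 18.5 and 17.8 CPM in the lenvatinib libraries (0.18 ± 0.08, adjusted p = 0.0785). The row of Ube2c overlaps that of the abundant muscle gene Tnnc2 on the opposite strand by 1662 bases. Tnnc2 was at 1045 CPM and rose by 0.18 on the log2 scale (adjusted p = 3.39e-07). With no strand setting known for the counting, it is not known how reads in the shared bases were counted. What the overlap does to the Ube2c value was not tested. Bub1, a checkpoint kinase, was at 13.4, 12.1 and 12.7 CPM in the untreated and 13.9, 13.7 and 13.6 CPM in the lenvatinib libraries and did not pass, although its groups did not overlap (0.11 ± 0.08, adjusted p = 0.339). Ttk, encoding the checkpoint kinase MPS1, gave 0.21 ± 0.11 (adjusted p = 0.165). Without the first untreated library, Ttk and Ube2c passed as higher (adjusted p = 0.0058 and 0.0119). That library was the highest of its group in both genes, so these calls add no support.

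Of 8 genes of spindle motors and microtubule proteins 2 rose, both encoding kinesins, and 6 did not pass. The share called was 25%, against 28.2% of all rows. Kif4, a motor that binds chromosome arms and the central spindle, was at 12.4, 10.5 and 9.91 CPM in the untreated and 13.3, 13.3 and 13.3 CPM in the lenvatinib libraries. The lenvatinib libraries were nearly identical and above all untreated ones, and Kif4 rose 1.21-fold (0.28 ± 0.09, adjusted p = 0.0126). The call was lost without the second (adjusted p = 0.0563) or the third untreated library (adjusted p = 0.115). The row of Kif4 overlaps Pdzd11 on the opposite strand by 832 bases. Pdzd11 was at 39.1 CPM and did not pass the test (adjusted p = 0.85). Kif15, a motor that helps hold the spindle bipolar, was at 6.88, 5.80 and 6.15 CPM in the untreated and 7.11, 8.51 and 7.85 CPM in the lenvatinib libraries. Its groups did not overlap, and Kif15 rose 1.25-fold (0.32 ± 0.11, adjusted p = 0.026). Kif15 did not pass without the second (adjusted p = 0.113) or the third untreated library (adjusted p = 0.0755). The same held for the second and the third lenvatinib libraries (adjusted p = 0.126 and 0.0632). With DESeq2 its adjusted p was 0.0836.

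Nusap1, a microtubule-bundling protein, was at 19.9, 15.2 and 16.03 CPM in the untreated and 20.2, 19.6 and 17.9 CPM in the lenvatinib libraries. The first untreated library lay among the lenvatinib libraries and the other 2 below them (0.17 ± 0.08, adjusted p = 0.136). Rows of Nusap1, Kif11 and Ncapg also share bases with expressed genes on the opposite strand (Oip5, Gm46649 and Lcorl, none of them called). Hmmr, whose product organizes spindle poles, was at 19.9, 16.9 and 18.2 CPM in the untreated and 19.9, 17.9 and 17.2 CPM in the lenvatinib libraries and had the largest p of its role (adjusted p = 0.985, 95% interval -0.15 to 0.14). The other 4 genes were Kif11, the main motor of spindle bipolarity (0.11 ± 0.07), the microtubule depolymerase Kif2c (0.17 ± 0.10), Kif18b (0.10 ± 0.09) and the Aurora A activator Tpx2 (0.05 ± 0.05), with adjusted p-values of 0.227 to 0.551. Without the first untreated library, Nusap1 and Kif11 passed as higher (adjusted p = 0.00443 and 0.0432), which again restates only how high that library was.

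Of 7 cytokinesis genes 1 rose, Racgap1, and 6 did not pass (14.3% called, against 28.2% of all rows). The product of Racgap1 is the GTPase-activating subunit of centralspindlin, which bundles the central spindle. Racgap1 was at 71.6, 66.04 and 66.2 CPM in the untreated and 75.2, 70.9 and 73.6 CPM in the lenvatinib libraries. The groups overlapped, since the first untreated library was above the second lenvatinib library, and the rise was 1.08-fold (0.11 ± 0.04, adjusted p = 0.0366). Among the 6 fits that left out 1 library, Racgap1 was called in 2. Without the second and the third untreated libraries in turn its adjusted p was 0.15 and 0.156, and without the first and the third lenvatinib libraries in turn 0.135 and 0.0959, and with DESeq2 it was 0.115. Its partner in centralspindlin, the motor Kif23, was at 20.7, 20.1 and 17.6 CPM in the untreated and 19.6, 17.3 and 20.8 CPM in the lenvatinib libraries, with overlapping groups (-0.0084 ± 0.07, adjusted p = 0.951).

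Prc1, the bundler of antiparallel microtubules, was at 36.2, 36.4 and 32.8 CPM in the untreated and 36.9, 37.9 and 38.2 CPM in the lenvatinib libraries and did not pass, although its groups did not overlap (0.10 ± 0.05, adjusted p = 0.145). Its row shares 21810 bases with that of Rccd1 (9.12 CPM, not called) on the opposite strand. Ect2, which activates RhoA at the cleavage site, was at 25.1, 20.9 and 20.8 CPM in the untreated and 25.1, 24.4 and 22.9 CPM in the lenvatinib libraries (0.11 ± 0.07, adjusted p = 0.24). Ect2 passed as higher without the first untreated library (adjusted p = 0.024), the highest of its group, so that call adds no support. The scaffold of the contractile ring, Anln, gave -0.025 ± 0.04 and the kinesins Kif20a and Kif20b -0.059 ± 0.05 and -0.054 ± 0.08, with adjusted p-values of 0.467 to 0.715. The row of Kif20a shares 2327 bases with that of Cdc23 on the opposite strand, which was at 52.6 CPM and rose (adjusted p = 0.00613), so the value of Kif20a is uncertain.

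Of 7 genes of chromosome structure 3 rose and none fell (42.9% called, against 28.2% of all rows), and all 7 fold changes were above 0. Top2a (chromosome 11, 98883769 to 98915015 as deposited), encoding topoisomerase II alpha, was the most abundant of the 46 genes in CPM, at 81.8, 67.7 and 74.5 CPM in the untreated and 90.99, 90.998 and 96.3 CPM in the lenvatinib libraries. Every lenvatinib library was above every untreated one, and Top2a rose 1.24-fold (0.31 ± 0.06, adjusted p = 0.00122). Smc2, an ATPase core subunit of condensin (chromosome 4, 52439243 to 52488260 as deposited), was at 38.8, 32.96 and 34.9 CPM in the untreated and 44.8, 41.7 and 43.2 CPM in the lenvatinib libraries. It rose 1.21-fold with no overlap (0.28 ± 0.05, adjusted p = 6.27e-05). Ncaph, encoding the subunit that closes the condensin I ring, was at 17.1, 15.5 and 13.2 CPM in the untreated and 18.02, 18.04 and 17.6 CPM in the lenvatinib libraries. Ncaph rose 1.17-fold, again with no overlap (0.23 ± 0.08, adjusted p = 0.0217). The call of Ncaph was lost without the third untreated library (adjusted p = 0.243) and without the first (adjusted p = 0.0524) or second lenvatinib library (adjusted p = 0.0608), and with DESeq2 (adjusted p = 0.0761).

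The partner of Smc2 in the condensin core, Smc4, did not pass (0.05 ± 0.04, adjusted p = 0.384), and its 95% interval of -0.03 to 0.13 lay below the estimate for Smc2. The difference between the 2 genes was not tested. The condensin I subunits Ncapd2 (0.14 ± 0.06, adjusted p = 0.0838) and Ncapg (0.031 ± 0.09, adjusted p = 0.837) did not pass. Ncapd2 passed as higher without the first untreated library (adjusted p = 0.0209) or the first lenvatinib library (adjusted p = 0.0141). For Ncapd2 these were the highest untreated and the lowest lenvatinib library, so both calls restate that and add no support. Mki67, encoding the proliferation marker Ki-67 that coats mitotic chromosomes, was at 65.6, 54.1 and 59.3 CPM in the untreated and 55.4, 60.4 and 64.6 CPM in the lenvatinib libraries. The values of the groups were interleaved (0.014 ± 0.09, adjusted p = 0.933, 95% interval -0.19 to 0.22).

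**Figure D3:**
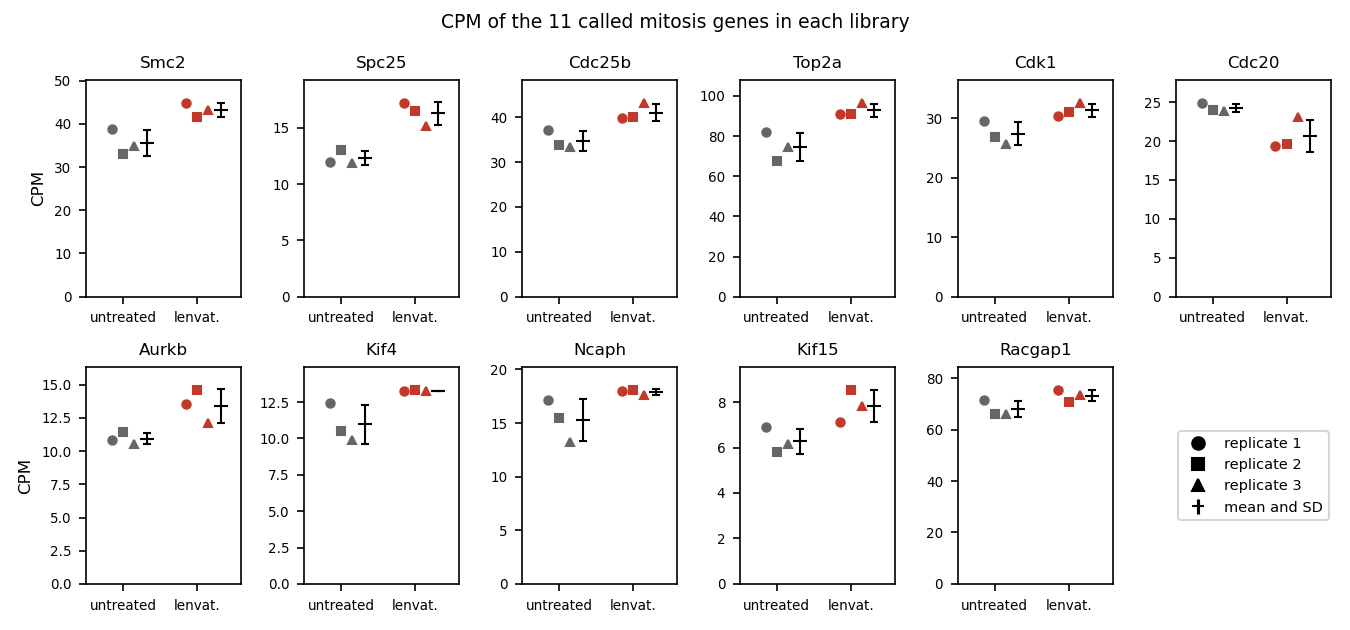
CPM in each library (symbols by replicate number) of the 11 genes past an adjusted p of 0.05, with the mean and SD of each group beside them; every axis starts at 0. In 10 of the 11 genes the groups do not overlap, and Racgap1 is the exception.

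Smc2, Spc25, Cdc25b and Top2a were called in all 14 alternative fits, and each of the other 7 called genes was lost in at least 1. Per kilobase of the deposited feature length, on which levels can be compared between genes, Cdc20 was the highest in untreated cells at 12.98 CPM per kilobase, followed by Smc4 at 11.99 and Ccnb2 at 10.3. In lenvatinib-treated cells Smc4 was first at 12.4 and Cdc20 next at 11.1 CPM per kilobase. The lowest tested levels were those of Kif15, at 0.569 and 0.709 CPM per kilobase.

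Other mitosis genes, 142 of 149 listed names with a row and 140 tested, were fitted in the same way. Of these 28 rose, 8 fell and 104 did not pass (25.7% called against 28.2% of all rows), with a median of 0.065. Without the second untreated library 22 were called (24.97% of all rows were), without the first lenvatinib library 20 (24.5% of all rows) and with DESeq2 22 (22.1% of all rows). All 5 called genes of the 11 tested in the checkpoint list rose (45.5% called, against 28.2% of all rows). They were led by Kntc1 and Zwilch, subunits of the RZZ complex at unattached kinetochores (0.34 ± 0.09 and 0.40 ± 0.11, adjusted p = 0.00267 and 0.00294), and Mad2l1, encoding MAD2 (0.23). Of 29 further kinetochore genes 4 rose and none fell (13.8% called), among them Ska2 (0.31), Cenpq (0.30) and Cenpp (0.50). Spindle and centrosome genes had 10 of 36 higher and 3 lower (36.1% called). Gtse1, encoding a microtubule-associated protein, rose from 9.01 ± 1.296 to 13.2 ± 0.196 CPM (0.55 ± 0.09, adjusted p = 6.45e-06), beside the augmin subunit Haus1 (0.42) and the motor Kifc1 (0.32). The 3 that fell were Clasp1 (-0.10), Kif24 (-0.19) and Kif3b (-0.10).

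In the APC/C list 4 of 17 rose and none fell (23.5% called, against 28.2% of all rows). They were led by the enzyme Ube2s (0.22) and the subunits Anapc5 (0.12) and Cdc23 (0.15). In the cohesin list 2 of 15 rose, Smc3 (0.11) and Esco2 (0.31), and 2 fell, Nipbl (-0.11) and Pttg1 (26.7% called). Pttg1 encodes securin, the separase inhibitor that APC/C with CDC20 marks for destruction, and fell from 9.13 ± 1.22 to 7.299 ± 0.441 CPM (-0.32 ± 0.10, adjusted p = 0.0189). Of 6 condensin II and axis genes 2 rose, Ncapg2 (0.20) and Ncapd3 (0.23), and none fell (33.3% called). In the cytokinesis list 3 of 12 fell and none rose (25% called, against 28.2% of all rows): Cit (-0.24), Septin9 (-0.08) and Chmp4b (-0.078). Of the 7 cytokinesis genes described earlier 1 rose and none fell. Among 14 further genes of entry and exit control 1 passed (7.14%), the kinase gene Pbk (0.29).

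Among 27 regulators of mitotic transcription 9 rose and 3 fell (44.4% called, against 28.2% of all rows). Mybl2, encoding B-MYB, rose from 5.48 ± 0.656 to 7.57 ± 0.551 CPM (0.46 ± 0.11, adjusted p = 0.00175), while Foxm1 was at 24.8 ± 1.81 and 26.04 ± 0.516 CPM and did not pass (0.074 ± 0.06, adjusted p = 0.401). These 2 were named after their values were seen, as the activating partners of MuvB. The cell cycle repressors E2f7 and E2f8 rose by 0.62 and 0.27 and E2f1 by 0.29. Of the 3 that fell, Cdkn1a, encoding the CDK inhibitor p21, fell from 1935 ± 35.3 to 1689 ± 19.1 CPM (-0.20 ± 0.02, adjusted p = 8.23e-09), E2f2 changed by -0.29 and Cdkn1c, encoding p57, by -0.41.

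Genes of the G1/S transition and DNA replication, the preceding step of the cycle, had a larger share of calls than either mitosis list. Of 38 tested 25 rose (65.8%, against 13.3% of all rows) and none fell, with a median of 0.27 against 0.10 for the mitosis genes. Cyclin E2, Ccne2, rose from 6.298 ± 0.506 to 12.03 ± 1.67 CPM (0.92 ± 0.10, adjusted p = 3.12e-09), Ccne1 by 0.67 and the replication licensing factor Cdc6 by 0.83. The difference between the 2 lists was not tested. This comparison was not planned, and the lists were chosen with earlier results of these data known. With 1 library left out, 20 to 27 of the 38 genes were called higher, where 11.3% to 11.8% of all rows were.

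**Figure D4:**
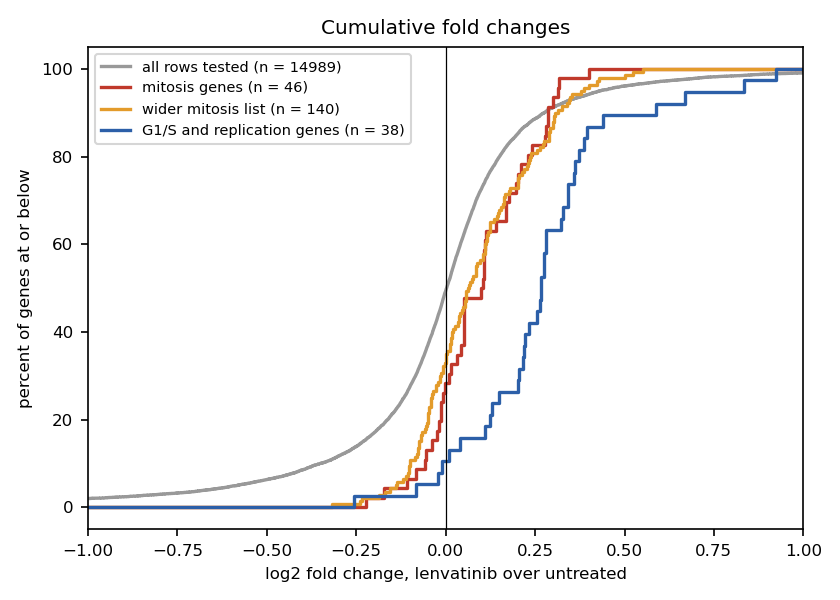
Cumulative share of genes (percent) by log2 fold change, lenvatinib over untreated, for the 46 mitosis genes, the 140 other mitosis genes, the 38 G1/S and replication genes and all 14989 rows tested. The medians are 0.10, 0.065, 0.27 and 0.0027, and the axis runs from -1 to 1.

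The label of differentiating muscle cells was checked against markers. All 12 myotube markers were tested, with 6 higher and 2 lower (66.7% called, against 28.2% of all rows). Their sums were 21468 to 22268 CPM in the untreated and 22082 to 22605 CPM in the lenvatinib libraries. Of 11 tested markers of undifferentiated and reserve myoblasts 6 rose and 1 fell (63.6% called). Id3 went from 22.5 ± 1.47 to 39.9 ± 1.51 CPM, Myf5 was higher by 0.57 and Spry1 was the gene that fell. The myoblast list summed to 2758 to 2881 and 2781 to 2805 CPM. Pax7, a defining marker of these cells, was at 10.9 ± 0.364 and 11.6 ± 0.407 CPM (adjusted p = 0.48). Of 6 tested fibroblast markers 3 rose and 2 fell (83.3% called). The fibroblast sums were 2088 to 2217 and 2527 to 2719 CPM, and Thy1 and Lum were below 0.5 CPM in both groups. The part of these cells in the mitotic transcripts was not tested. Macrophage markers were near 0, with sums over 6 genes of 1.57 to 2.29 CPM in the untreated and 2.18 to 2.95 CPM in the lenvatinib libraries. The 3 tested had fold changes above 0 and none passed, and Adgre1, a defining marker, had 0 counts in all 6 libraries. Endothelial markers summed over 4 genes to 0.470 to 0.661 and 0.768 to 1.43 CPM. Of these only Tek had enough counts for the test, with groups that did not overlap, and it did not pass (0.88 ± 0.36, adjusted p = 0.0645). The defining endothelial marker Pecam1 had at most 1 count in any library. Of the 4 adipocyte markers none was tested, their sum was at most 0.104 CPM, and Plin1 and Cfd had 0 counts in all 6 libraries.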

How the data were processed

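RNA-seq was made from 3 untreated and 3 lenvatinib libraries. The authors aligned the reads with Hisat2 2.0.1, per the labels' protocols; HTSeq 0.6.1 and the mouse build mm10 are named in the submitters' processing notes. The deposited table holds raw counts per gene row for the 6 libraries, with the authors' feature length in bases, used here for levels per kilobase. Library kit and strand setting: not given in the sources used here. Of 51811 gene identifiers shared with GENCODE M21 (GRCm38), 1490 had the same start and end, so deposited positions are printed without a build. Every count belonged to a gene row.

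Rows were kept with edgeR's filterByExpr (minimum count 10, minimum total count 15), scaled with TMM factors and tested with edgeR's quasi-likelihood test (edgeR 4.0.16, R 4.3.3), lenvatinib against untreated, all 6 libraries, with Benjamini-Hochberg adjustment over all rows tested and a threshold of 0.05. Values printed after ± are SD with n = 3 for CPM and SE for log2 fold changes. Intervals are 95%. Totals were 24566768 to 32406563 counts per library, so 3 counts, the most that a count of 0 allows, are 0.0927 to 0.123 CPM; this covers counting error only. The biological coefficient of variation was 3.6%. Pairs of libraries within a group differed by more than counting noise (chi-square per degree of freedom 2.78 to 5.60), and no pair was counted as 1 sample. The test was run on simulated data, and no success was required there for changes as small as those of the mitosis genes. The 14 alternatives were limma-voom (limma 3.58.1), DESeq2 (1.42.0), other scalings and filters, a stricter threshold, the replicate number as a block and each library left out. In each role, the up to 3 genes with the smallest p, any called gene against the majority direction and the gene with the largest p are given with every library's value; other lists give up to 3 called genes per direction. The genes and lists were chosen with earlier results of these data known.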

Additional observations from a re-analysis of the deposited data

How the results depend on the processing

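The count of 11 called mitosis genes was 7 at an adjusted p under 0.01 (15.2%, against 20.3% of all rows) and 7 to 18 with 1 library left out (15.2% to 39.1%, against 23.8% to 24.97% of all rows). The 10 higher genes became 6 at 0.01 and 5 to 17 with 1 library left out, and the 1 lower gene became 2 with DESeq2 size factors and with a mean of at least 5 CPM, and 0 to 2 with 1 library left out. The other mitosis genes had 36 calls in the main fit and 22 with DESeq2 (22.1% of all rows were called). They had 17 at 0.01 (20.3% of all rows) and 20 to 32 with 1 library left out (23.8% to 24.97% of all rows). How many of the same genes stayed called was not counted. The median fold change of the 46 genes lay at 0.060 to 0.14 with 1 library left out. No called gene changed direction. The uncalled Hmmr turned above 0 with library totals (0.00014) and without the filter (0.0032). With 1 library left out, these uncalled genes crossed 0, on the log2 scale: Ccnb1 -0.064 to 0.029, Plk1 -0.053 to 0.031, Nek2 -0.088 to 0.11, Nuf2 -0.15 to 0.14, Hmmr -0.062 to 0.061, Kif20a -0.10 to 0.0011, Kif23 -0.076 to 0.059, Anln -0.054 to 0.030, Cenpe -0.072 to 0.14, Cenpf -0.065 to 0.16, Mki67 -0.050 to 0.087, Ncapg -0.0042 to 0.075, Cdca3 -0.022 to 0.13, Ndc80 -0.038 to 0.14, Kif20b -0.13 to 0.0032 and Tpx2 -0.013 to 0.10. Same-numbered libraries did not deviate together (r = 0.022, -0.078 and -0.0042). No pairing by number was seen, but with 3 libraries per group this cannot exclude that same-numbered libraries were prepared together. With the replicate number as a block 11 mitosis genes, 35 other mitosis genes and 4134 of all rows were called. Depth limits Cdc25c and Birc5, below 4 CPM, most.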

Other observations

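The first untreated library was also the highest of its group in 27 of 38 genes of G1/S and replication (71.1%) and in 78 of 140 other mitosis genes (55.7%), against 32.6% of all rows. In the lenvatinib group the third library was the highest in 22 of the 46 mitosis genes (47.8%, against 31.6% of all rows), the first in 14 (30.4%, against 33.5%) and the second in 10 (21.7%, against 34.8%).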
